A study of Mus musculus with 6 samples.

Results

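Fc receptors are the cell-surface and intracellular proteins that recognise the constant part of antibodies, and 10 mouse genes of this family were examined in lymph nodes of wild-type mice and of mice that lack Rag2 and perforin. They were chosen by gene symbol, with earlier results of these data known. The 10 comprised 5 B cell members (Fcmr, Fcer2a, Fcrla, Fcrl1 and Fcgr2b), 4 myeloid and natural killer (NK) cell members (Fcgr1, Fcgr3, Fcgr4 and Fcer1g) and the neonatal receptor Fcgrt. All 10 were among the 9973 genes that could be tested, and 18 of their 19 probes were detected well enough for a test. The array carried 1 probe for Fcmr and for each of the 5 myeloid and neonatal genes, 4 for Fcrla, and 3 each for Fcer2a, Fcrl1 and Fcgr2b.

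The knockout group comprised lymph nodes of mice lacking both Rag2 and pfp, the perforin gene (labelled Rag2/pfp KO), and the comparison group those of wild-type mice, with 3 arrays in each. Without RAG2, a component of the enzyme that cuts and joins antigen receptor genes, B and T cell development stops early, while myeloid cells, NK cells and the stroma of the node remain. Perforin opens pores in the targets of cytotoxic cells. No treatment is named, and neither labels nor files state the strain, age, sex, node sampled or any pooling of mice. The labels do not say that replicates are separate animals, so the p-values rest on array-to-array spread alone, part or all of which can be technical.

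Antibody binding by most classical Fc receptors is turned into a signal in one of 2 ways. Activating receptors for IgG carry, or borrow from the common gamma chain encoded by Fcer1g, a tyrosine motif called ITAM that recruits the kinase Syk. Fcgr2b instead carries an inhibitory motif, ITIM, that recruits phosphatases and dampens B cell and myeloid activation. The neonatal receptor works differently, holding IgG and albumin in endosomes and returning them to the cell surface.

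Of the 10 promoters in the RefSeq table (GRCm38.p6), all of which matched by gene symbol, 4 are shown, from 2 B cell members and 2 myeloid members, because they share a short element. Each line gives the 100 bases that precede the first-listed transcription start, read 5′ to 3′ on the gene's strand, with capitals for GAGGAA or its reverse complement TTCCTC, the core recognised by PU.1, a transcription factor of both myeloid and B cells.
Fcmr: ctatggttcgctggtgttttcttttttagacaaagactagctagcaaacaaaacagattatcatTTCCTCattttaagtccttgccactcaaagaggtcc
Fcrla: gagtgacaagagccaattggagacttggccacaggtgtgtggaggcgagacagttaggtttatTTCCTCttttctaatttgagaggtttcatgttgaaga
Fcgr1: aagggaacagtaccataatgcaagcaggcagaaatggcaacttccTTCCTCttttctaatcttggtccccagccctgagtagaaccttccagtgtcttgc
Fcgr4: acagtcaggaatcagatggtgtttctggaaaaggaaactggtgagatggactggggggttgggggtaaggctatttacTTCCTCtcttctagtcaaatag

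These windows lie at chr1:130865677-130865776 on the plus strand (Fcmr), chr1:170927584-170927683 on the minus strand (Fcrla), chr3:96293970-96294069 on the minus strand (Fcgr1) and chr1:171018826-171018925 on the plus strand (Fcgr4). On either strand the 6 letters were present within 100 bases of the start in 6 of the 10 members, namely these 4, Fcrl1 and Fcgr3, and in 9.76% of the 27025 promoters of the table. Over 250 bases the same 6 members held them, against 23.1% of all promoters. The element thus stood before B cell members and before myeloid members alike. A match is a description of letters and says nothing of binding. On either strand, the octamer ATTTGCAT and the palindromic EBF1 motif were in 0 of the 10 windows of 250 bases (1.61% and 0.788% of all promoters), and the interferon gamma motif TTCNNNGAA was in 1, that of Fcgr1 (7.18% of all promoters). These motifs were picked after the sequences had been seen.

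The 6 arrays detected between 51.3% and 56.3% of 25697 probes, and 14378 probes were tested. Wild-type replicate 2 stood apart: over the tested probes it correlated at 0.884 and 0.893 with the other wild-type arrays but at 0.915 to 0.930 with the knockout arrays, whereas the other wild-type arrays correlated with each other at 0.984. The mean log2 level of 10 exocrine gland genes was 6.21 and 6.31 in wild-type replicates 1 and 3, 12.33 in wild-type replicate 2 and 11.97 to 14.64 in the knockout. Results are therefore also given with that array left out, and with the gland mean as a covariate. In the knockout the gland mean was high on every array, so the covariate rests mainly on wild-type replicate 2. Covariate results are an extrapolation and no independent check. Limma called 27.5% of genes at an adjusted p under 0.05, 17.3% lower and 10.2% higher in the knockout, and the groups did not overlap for 47.4% of genes. Over all probes tested, 28.6% were called, 18.5% lower and 10.1% higher. All levels are normalized log2 signals, in which a difference of 1 is a 2-fold change, and an offset added to the signals shrinks the change of dim probes.

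The B cell members divided into 4 that fell and 1 that did not pass the test. Fcmr, Fcer2a, Fcrla and Fcrl1 were lower in every knockout array than in any wild-type array, with fitted log2 fold changes of -9.06 to -2.82, while Fcgr2b overlapped between the groups. The fitted values of Fcmr and Fcer2a rest on knockout signals below background and are no measure of how far they fell, so bounds are given for them. The median change of the 5 was -3.84, with these 2 genes at their bounds too, against 0.03 over all 9973 genes, whose 5th and 95th percentiles were -1.52 and 1.54. The 4 falls can be read against the 17.3% of all genes called lower, and the 4 without overlap against 26.0% of all genes that were lower without overlap. Members and gene lists were chosen with earlier results of these data known, so such shares give a background and no independent test. In RNA from whole nodes, fewer cells of a type and less RNA per cell cannot be told apart.

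**Figure D1:**
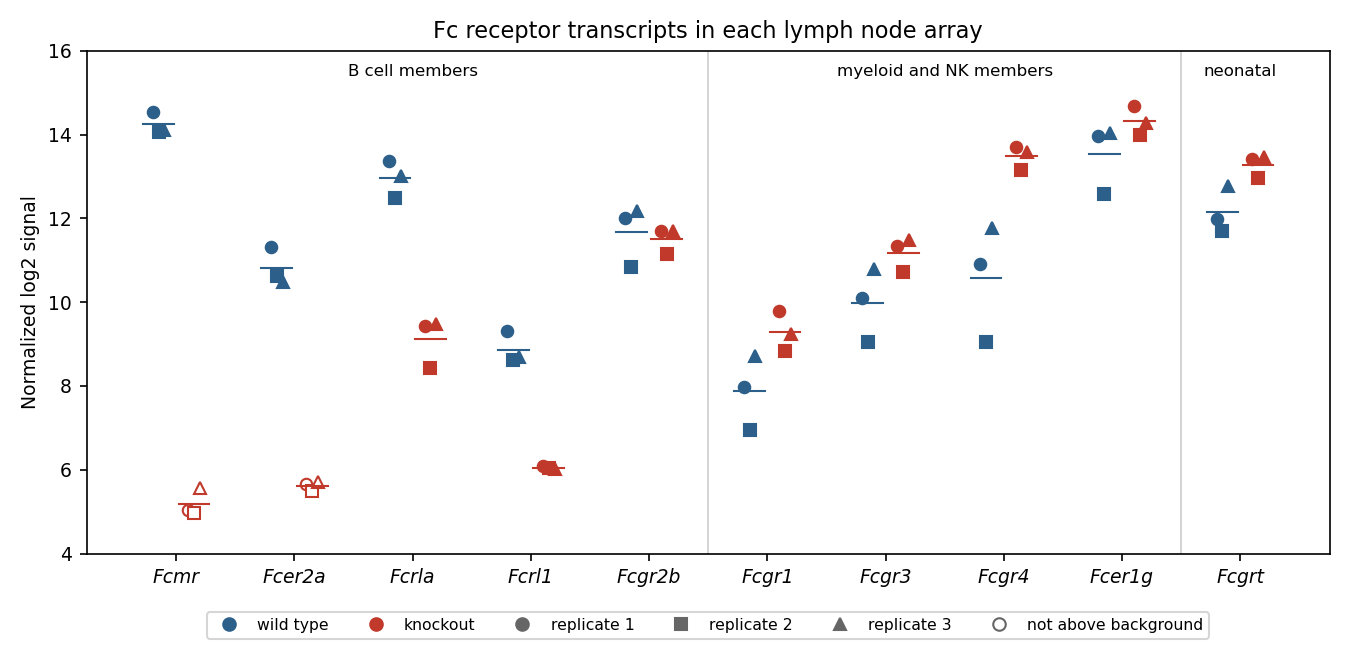
Normalized log2 signal (vertical axis) of the probe that represents each of the 10 genes in each array, with wild type in blue, knockout in red, a marker shape per replicate and a line at each group mean of 3 arrays. Open markers were not above background, as for Fcmr and Fcer2a in all 3 knockout arrays. For 7 of the 10 genes the groups do not overlap, against 47.4% of all genes.

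Fcmr encodes the receptor for IgM, found mainly on B cells in the mouse. Its signals in wild-type replicates 1, 2 and 3 were 14.55, 14.07 and 14.12, and in the knockout 5.05, 4.97 and 5.56. None of the knockout signals was above background (detection p of 0.24, 0.33 and 0.071). Fcmr was at least 349-fold lower in the knockout (5.19 ± 0.32 against 14.25 ± 0.26, SD, n = 3; limma adjusted p = 0.00012), a bound that sets each knockout array to whichever is greater, its measured value or the dimmest detected signal on that array. With any 1 array left out the limma adjusted p was at most 0.0032.

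Fcer2a encodes CD23, the low-affinity IgE receptor, a lectin of mature follicular B cells. Its probe with the highest mean read 11.32, 10.63 and 10.49 in the wild-type replicates and 5.67, 5.49 and 5.70 in the knockout, again with no knockout array above background, though 2 came close (detection p of 0.058, 0.10 and 0.053). The transcript was at least 32.2-fold lower (5.62 ± 0.11 against 10.81 ± 0.45, SD, n = 3; limma adjusted p = 0.00048). The other 2 Fcer2a probes were also below background in every knockout array, with lower bounds of 2.86-fold and 3.45-fold. Those 2 probes had wild-type means of 7.32 and 7.59, which leaves less room above background for a fall.

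Fcrla, an Fc receptor-like protein that stays inside B cells and binds antibodies in the endoplasmic reticulum, fell but remained detectable. Its wild-type signals were 13.37, 12.48 and 13.02, and its knockout signals 9.43, 8.44 and 9.49, all above background. The fall was 14.3-fold (log2 fold change -3.84, SE 0.36, limma adjusted p = 0.0025). Its 4 probes gave log2 fold changes of -3.70 to -4.70, and each of them passed the test. On 3 of the 4 probes every knockout array was above background, so a residual Fcrla signal was seen by separate probes.

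Fcrl1, a B cell surface protein of the Fc receptor-like family, read 9.32, 8.61 and 8.68 in wild type and 6.09, 6.04 and 6.02 in the knockout. The knockout signals were close to background, with detection p of 0.020, 0.040 and 0.026. The change was a 7.06-fold fall (log2 fold change -2.82, SE 0.22, limma adjusted p = 0.0017). The next probe fell by 2.51, and the third was below background on all 6 arrays and was not tested. The 4 falling genes each kept an adjusted p under 0.05 with any 1 array left out, the highest being 0.017, for Fcrla.

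Fcgr2b, the inhibitory IgG receptor and the only classical IgG Fc receptor of B cells, is also expressed by macrophages, dendritic cells and mast cells. Its probe with the highest mean read 12.02, 10.85 and 12.18 in wild type and 11.71, 11.15 and 11.69 in the knockout. The knockout arrays lay inside the wild-type range. The log2 fold change was -0.16 (SE 0.39, limma adjusted p = 0.76), and its sign hung on single arrays: it was -0.58 without wild-type replicate 2 (limma adjusted p = 0.081), 0.02 without knockout replicate 2, and 0.01 and 0.08 without wild-type replicates 1 and 3. With the gland covariate it was 0.88 (limma adjusted p = 0.057).

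The 3 Fcgr2b probes did not give the same answer. A second probe changed by -0.24 (SE 0.38, limma adjusted p = 0.64), but the dimmest read 8.26, 7.30 and 8.47 in wild type and 7.06, 6.52 and 6.51 in the knockout, without overlap, and fell 2.49-fold (log2 fold change -1.31, SE 0.34, limma adjusted p = 0.034). Fcgr2b makes a B cell form and a myeloid form by alternative splicing of its cytoplasmic part. The platform annotation assigns the dimmest probe and the second probe to one RefSeq transcript and the brightest to another. Which spliced form each probe reads is not stated there, and 2 probes of one annotated transcript differed.

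**Figure D2:**
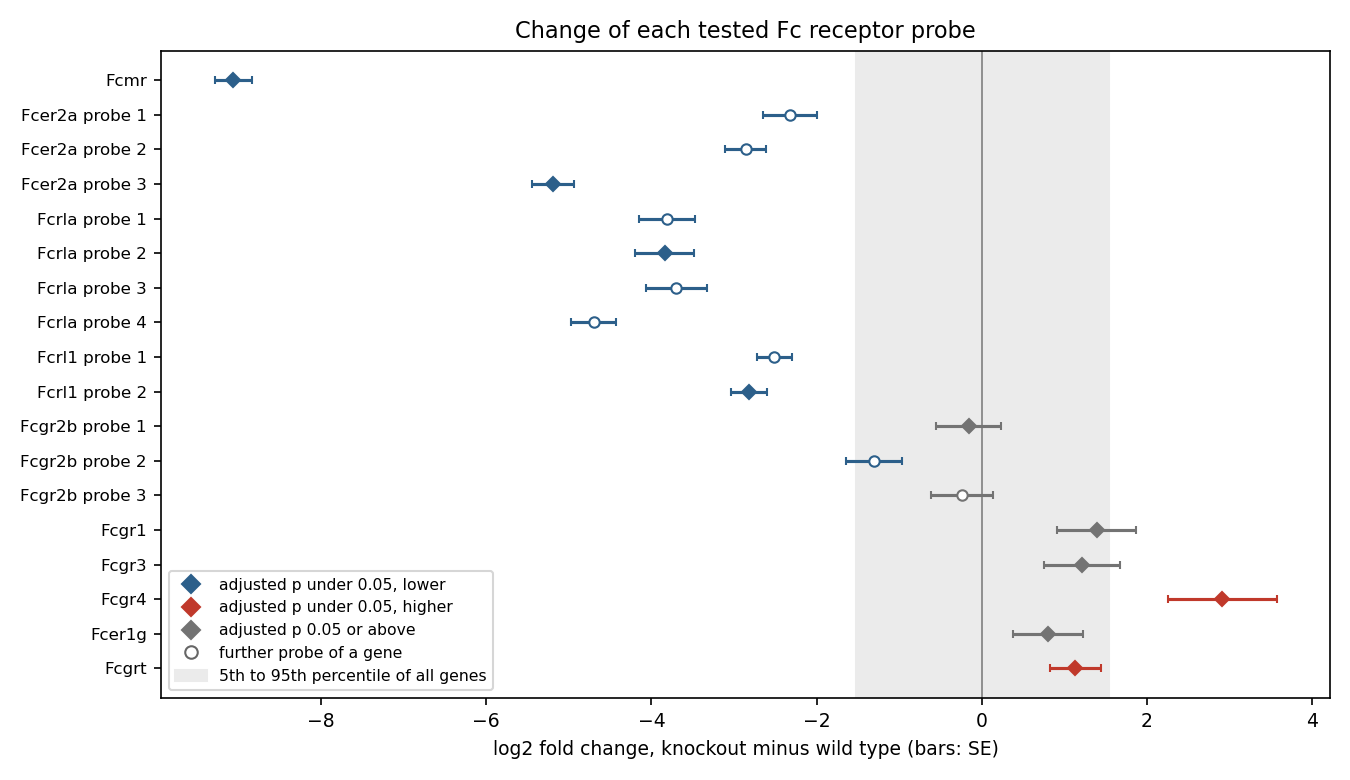
Log2 fold change (horizontal axis, knockout minus wild type, bars SE) of the 18 tested probes of the 10 genes, limma on 3 arrays against 3, coloured by whether the adjusted p was under 0.05, with diamonds for the probe that represents a gene. The grey band spans the 5th to 95th percentile of all genes, -1.52 to 1.54; the probes of Fcmr, Fcer2a, Fcrla and Fcrl1 lie to its left and Fcgr4 to its right.

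The myeloid and NK members all had higher means in the knockout, and 1 of the 4, Fcgr4, passed the test. Their median log2 fold change was 1.30, against 0.03 over all genes. With Fcgrt, 2 of these 5 genes were called higher, against 10.2% of all genes. The groups did not overlap for Fcgr1, Fcgr4 and Fcgrt, against 21.3% of all genes that were higher in the knockout without overlap.

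Fcgr4 encodes a low- to medium-affinity activating IgG receptor of mouse monocytes, macrophages and neutrophils. Its signals were 10.90, 9.05 and 11.78 in the wild-type replicates and 13.71, 13.16 and 13.58 in the knockout. The wild-type arrays were widely spread and the knockout arrays close together, with all 3 above the highest wild-type array. Fcgr4 was 7.5-fold higher (13.48 ± 0.29 against 10.57 ± 1.39, SD, n = 3; log2 fold change 2.91, SE 0.66, limma adjusted p = 0.023), which placed it 121st from the top of 9973 genes. The change was 2.14 without wild-type replicate 2 (limma adjusted p = 0.0035) and 4.73 with the gland covariate (limma adjusted p = 0.0071). Leaving out any single array of the knockout, or replicate 1 of wild type, ended the call, with log2 fold changes of 2.80 to 3.07 and limma adjusted p of 0.059 to 0.078.

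Fcgr1, the high-affinity IgG receptor CD64 of monocytes and macrophages, read 7.98, 6.95 and 8.72 in wild type and 9.78, 8.83 and 9.23 in the knockout. The lowest knockout array stood just above the highest wild-type array. The log2 fold change of 1.39 (SE 0.48) did not pass the test (limma adjusted p = 0.074). Leaving out wild-type replicate 2 gave 0.92, and leaving out replicate 3 gave 1.81 (limma adjusted p = 0.049). The gland covariate gave 2.67 (limma adjusted p = 0.0099).

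Fcgr3 encodes CD16, an activating receptor of macrophages, neutrophils and mast cells and the IgG receptor of mouse NK cells. Wild-type signals were 10.09, 9.05 and 10.78, and knockout signals 11.35, 10.71 and 11.49, so that the lowest knockout array fell just under the highest wild-type array. The log2 fold change was 1.21 (SE 0.46, limma adjusted p = 0.094). Leaving out wild-type replicate 2 gave 0.75, and the gland covariate gave 2.36 (limma adjusted p = 0.016).

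Fcer1g, the ITAM-bearing gamma chain that Fcgr1, Fcgr3 and Fcgr4 need for surface expression and signalling, had the smallest difference of the myeloid and NK members. It read 13.96, 12.59 and 14.03 in wild type and 14.69, 14.00 and 14.28 in the knockout. The groups overlapped, with knockout replicate 2 between wild-type replicates 1 and 3, and the log2 fold change was 0.80 (SE 0.42, limma adjusted p = 0.19). Without wild-type replicate 2 it was 0.33, and the gland covariate gave 2.02 (limma adjusted p = 0.0072).

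Fcgrt, the heavy chain of the neonatal receptor FcRn, is expressed by endothelium, macrophages and many epithelia. It read 11.98, 11.70 and 12.77 in wild type and 13.41, 12.97 and 13.46 in the knockout, without overlap. Fcgrt was 2.19-fold higher (13.28 ± 0.27 against 12.15 ± 0.55, SD, n = 3; log2 fold change 1.13, SE 0.31, limma adjusted p = 0.039). The change was 0.91 without wild-type replicate 2 (limma adjusted p = 0.045) and 1.71 with the gland covariate (limma adjusted p = 0.028). As for Fcgr4, leaving out a knockout array or replicate 1 of wild type ended the call (log2 fold change 1.04 to 1.29, limma adjusted p 0.068 to 0.12). B2m, the light chain that FcRn shares with class I molecules, had a log2 fold change of -0.33 (SE 0.20, limma adjusted p = 0.24).

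**Figure D3:**
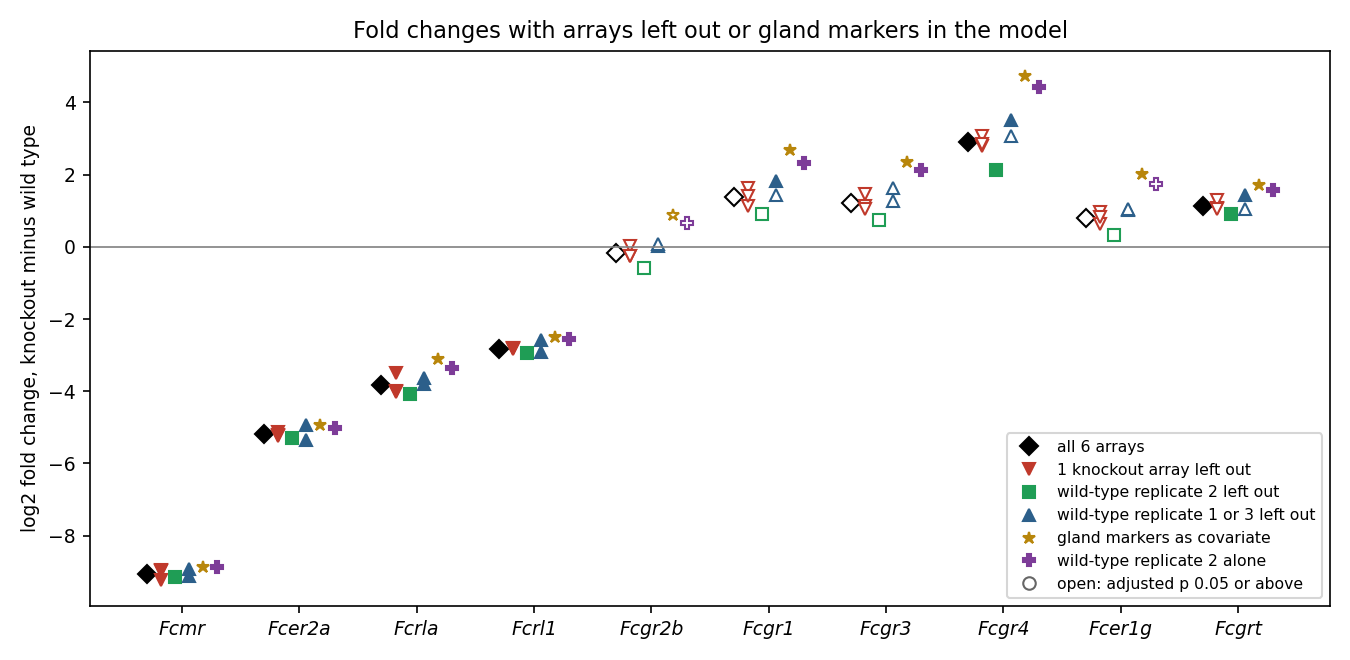
Log2 fold change (vertical axis, knockout minus wild type) of the 10 genes with all 6 arrays and with arrays left out, with the gland marker mean as a covariate, or against wild-type replicate 2 alone; filled markers have a limma adjusted p under 0.05. Against wild-type replicate 2 alone the spread comes from the knockout arrays only, and that 1 array is assumed to vary like them. Fcmr, Fcer2a, Fcrla and Fcrl1 are filled and below 0 in the settings drawn, the 5 myeloid, NK and neonatal members lie above 0, and the sign of Fcgr2b changes between settings.

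The same arrays ran low for nearly all members. Within wild type, replicate 2 was the lowest array for 9 of the 10 genes, the exception being Fcer2a. Within the knockout, replicate 2 was the lowest for 9 of 10, the exception being Fcrl1. Fcmr and Fcer2a were below background in the knockout, so their order there carries no weight. The share of all genes for which these arrays were lowest was not counted. Replicate 2 was also the array with the highest gland mean of each group, 12.33 in wild type and 14.64 in the knockout. The part of gland tissue in these differences was not tested.

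Differences between 2 genes within an array do not move with a factor that scales both alike, so each B cell member was set against each of the 5 other members. In all 25 pairs the B cell member was the lower of the pair in the knockout relative to wild type. The groups did not overlap in any of the 25, against 46.9% of all pairs of tested genes, which counts either direction. For Fcmr, Fcer2a, Fcrla and Fcrl1 the levels given above fix this in advance. Only the pairs with Fcgr2b add to it. In 10 of the 25 pairs the B cell member was Fcmr or Fcer2a, below background in the knockout, and no size is given. In the other 15 the differences of log2 fold changes ran from -6.75 for Fcrla against Fcgr4 to -0.96 for Fcgr2b against Fcer1g. Each of the 25 gave an exact two-sided permutation p of 0.10, the smallest that 3 arrays against 3 can give, and pairs that share a gene are not independent.

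Among these, Fcgr2b against Fcgr3 compares an inhibitory and an activating IgG receptor that many myeloid cells carry together. Their difference of log2 fold changes was -1.37 (SE 0.18), from a within-array difference of 1.71 ± 0.28 in wild type to 0.34 ± 0.13 in the knockout (SD, n = 3). Against Fcgr4 it was -3.07 (SE 0.41), against Fcgr1 -1.56 (SE 0.24) and against Fcgrt -1.30 (SE 0.27). Only the change of such a difference can be read, since signals of different probes are not comparable.

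Among the other 5 members, 10 pairs were compared in the same way and 5 did not overlap, a share near the 46.9% of all gene pairs. Fcgr4 was in 4 of those. Its log2 fold change exceeded that of Fcer1g by 2.11 (SE 0.39) and that of Fcgrt by 1.78 (SE 0.54), while the difference was -1.70 (SE 0.32) for Fcgr3 minus Fcgr4 and -1.52 (SE 0.33) for Fcgr1 minus Fcgr4, each with an exact permutation p of 0.10. The other was Fcgr1 against Fcer1g, at 0.59 (SE 0.21). Fcgr1, Fcgr3 and Fcgrt overlapped with one another, with differences of 0.08 to 0.26 and exact permutation p of 0.40 to 0.90.

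Fcrla, Fcgr2b, Fcgr4, Fcgr3 and Fcer1g stand in this order on mouse chromosome 1, among the 13 protein-coding genes that the RefSeq table places from Fcrla to Fcer1g. Along that stretch the log2 fold changes were -3.84, -0.16, 2.91, 1.21 and 0.80, so Fcgr2b and its neighbour Fcgr4 differed by 3.07. Of the 8 other genes in the stretch 1 was tested, the respiratory chain gene Sdhc, which rose by 1.23 on the log2 scale (SE 0.18, limma adjusted p = 0.0071). Fcmr lies elsewhere on the same chromosome, Fcrl1 and Fcgr1 on chromosome 3, Fcgrt on 7 and Fcer2a on 8.

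Markers of the cells that carry these receptors moved with them in part. Of 12 B cell markers 9 were tested, of which 8 fell and 0 rose, with a median log2 fold change of -3.70 (-2.94 with 3 genes at their bounds), and 3 of them (Ms4a1, Cd79a and Cr2) were not above background on any knockout array. The mean level of the 9 was 10.41 to 11.29 in wild type and 6.43 to 6.95 in the knockout. Among 16 tested macrophage and monocyte markers 4 rose and 1 fell, with a median log2 fold change of 0.72. Over all genes 10.2% were called higher and 17.3% lower. The mean level of these 16 was 9.92 to 11.13 in wild type and 10.78 to 11.11 in the knockout, overlapping between the groups.

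Of 11 tested NK cell markers 1 rose and 1 fell, with a median log2 fold change of 0.82. Neither count exceeded the shares of all genes called, 10.2% higher and 17.3% lower. Their mean level was 7.76 to 8.70 in wild type and 8.73 to 9.62 in the knockout, so the ranges nearly met without overlap. Neutrophil markers, of which 12 were tested, 0 rose and 1 fell, had a mean level of 8.88 to 13.12 in wild type and 8.82 to 10.35 in the knockout. Their median log2 fold change was -1.91. Among 10 tested dendritic cell markers 6 rose and 0 fell (mean level 7.97 to 8.58 in wild type and 9.05 to 9.73 in the knockout). Among 9 endothelial markers 1 rose and 0 fell (9.46 to 10.11 and 10.12 to 10.45), and among 6 mast cell and basophil markers 2 rose and 0 fell (7.89 to 8.52 and 8.59 to 9.69). These 3 means, like that of the NK markers, did not overlap between the groups, while 47.4% of single genes did not overlap either. The endothelial ranges nearly met, at 10.11 and 10.12. The 1 rise among the 9 endothelial genes is near the 10.2% of all genes called higher. Of 9 T cell markers 8 fell and 0 rose. The part of each cell type in the change of the receptors was not tested.

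**Figure D4:**
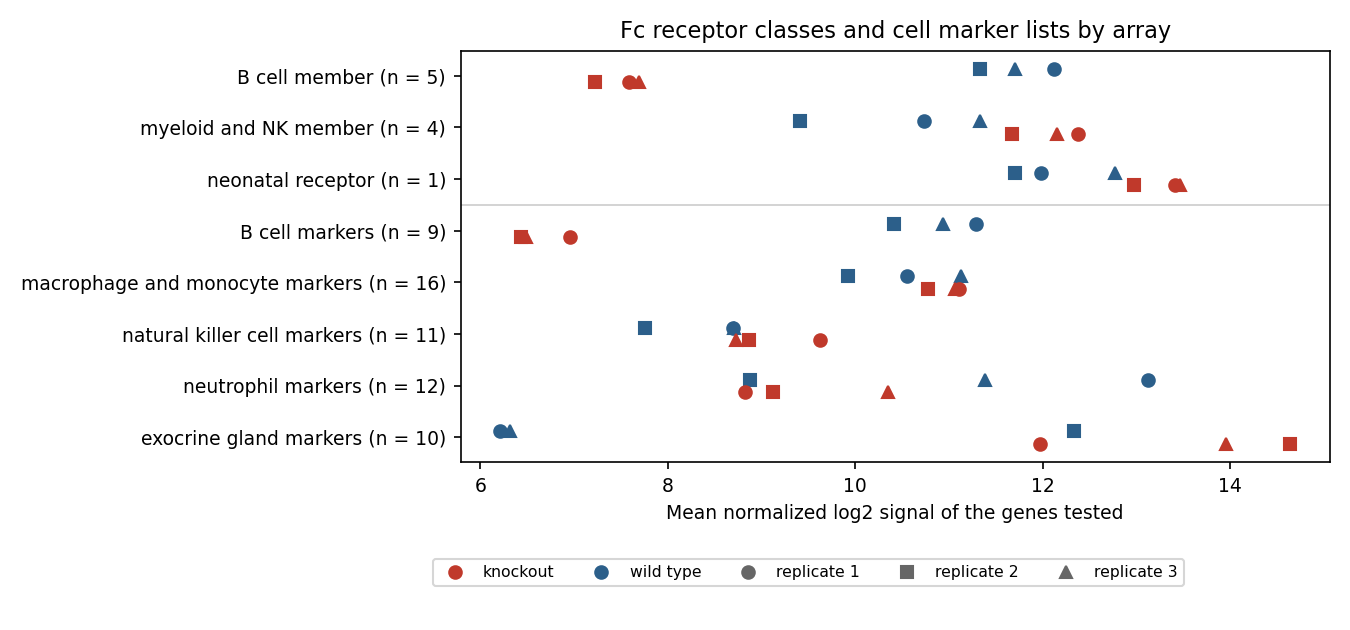
Mean normalized log2 signal (horizontal axis) of the tested genes of 3 Fc receptor classes and 5 marker lists in each array, with colour for genotype and shape for replicate. The B cell members and B cell markers separate the genotypes widely, the macrophage and neutrophil means overlap, and wild-type replicate 2 lies with the knockout arrays for the gland markers.

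Beyond the members, 9 further Fc receptor genes were listed, of which 4 were tested. Fcrls, an Fc receptor-like gene that in mice is known from microglia and some macrophages, rose 2.61-fold (log2 fold change 1.39, SE 0.24, limma adjusted p = 0.010). It read 6.03, 6.13 and 6.10 in wild type and 7.97, 7.19 and 7.25 in the knockout. Its wild-type levels were near the knockout levels of Fcrl1, which were close to background, so the size of the rise is uncertain. The alpha chain of the high-affinity IgE receptor, Fcer1a, changed by 0.86 (SE 0.39, limma adjusted p = 0.14) and the cytosolic antibody receptor Trim21 by -0.46 (SE 0.22, limma adjusted p = 0.15). The fourth, Pigr, which carries polymeric antibodies across epithelium, was not called either (limma adjusted p = 0.23).

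Of 28 genes listed for signalling by Fc receptors 24 were tested, of which 6 fell and 2 rose, with a median log2 fold change of -0.62. Over all genes 17.3% were called lower and 10.2% higher, so the 2 rises in 24 genes are near the background and the 6 falls not far above it. Lat, the adaptor of T cells, mast cells and NK cells, fell 14.1-fold (log2 fold change -3.82, SE 0.27, limma adjusted p = 0.0014). Blnk, the adaptor downstream of Syk in B cells, fell 8.63-fold (limma adjusted p = 0.0049). Cd247, the zeta chain of the T cell receptor that also serves CD16 in human NK cells, fell by a fitted 7.10-fold (limma adjusted p = 0.0023). It read 6.31, 5.64 and 5.54 in the knockout. On knockout replicates 2 and 3 this was under the levels of Fcrl1, which were close to background, so the size of its fall is uncertain. Btk, the kinase that activates phospholipase C gamma in B and myeloid cells, fell 3.11-fold (limma adjusted p = 0.014). That call did not hold when knockout replicate 2, knockout replicate 3 or wild-type replicate 3 was dropped, with the gland covariate, or against wild-type replicate 2 alone.

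Among the listed signalling genes, Fyn (log2 fold change -1.37, limma adjusted p = 0.02) and Zap70 (-1.23, limma adjusted p = 0.034) were also called lower. Neither call held when replicate 2 or 3 of the knockout, or replicate 1 or 3 of wild type, was dropped, or with the gland covariate. That of Zap70 was also lost without a filter. Several other genes of ITIM and ITAM signalling did not pass the test. Inpp5d, the phosphatase SHIP1 that the ITIM of Fcgr2b recruits, changed by 0.09 (SE 0.37, limma adjusted p = 0.86), and Syk, the kinase that binds the ITAM, by -1.10 (SE 0.34, limma adjusted p = 0.056). Tyrobp, the ITAM adaptor DAP12, changed by 1.00 (SE 0.40, limma adjusted p = 0.11). The 2 rises were Inppl1, the related phosphatase SHIP2 (log2 fold change 0.92, limma adjusted p = 0.046), and the adaptor Grb2 (0.69, limma adjusted p = 0.037). Neither held when replicate 2 or 3 of the knockout, or replicate 1 or 3 of wild type, was dropped, or with the gland covariate. That of Inppl1 was also lost without knockout replicate 1 and without a filter. That of Grb2 was also lost with the authors' values, an offset of 50 and the replicate block. The wild-type mean of Grb2, 5.95, was under the knockout mean of Fcrl1 (6.05), which was close to background.

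Of 8 receptors listed as partners of the gamma chain or of the adaptor DAP12, 5 were tested, and 0 rose or fell by limma. Their log2 fold changes were 0.11 to 0.93, the highest for the C-type lectin Clec4n (SE 0.44, limma adjusted p = 0.15). The antibody list had 1 gene that could be tested, Jchain, the joining chain of IgM and IgA polymers, which was at least 2.40-fold lower (limma adjusted p = 0.0086) and not above background on any knockout array. Cr2, the complement receptor CD21 that binds CD23 in humans, was at least 5.07-fold lower (limma adjusted p = 0.0023) and was likewise below background in the knockout.

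The genes whose pattern over the 6 arrays lay closest to each of 3 members were found by the root mean square of the difference between log2 levels after subtraction of each gene's mean. For Fcmr these were the B cell genes Pou2af1 (0.59), Cd79a (0.84) and Tnfrsf13c (1.09). For Fcer1g they were Gbp7 (0.08), Pth1r (0.09) and Tfpi (0.11), and for Fcgrt they were Sema3f (0.10), Mrap (0.12) and Pdgfrb (0.14). The levels of Fcmr in the knockout, on which its likeness rests in part, were below background.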

How the data were processed

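Lymph node RNA was measured on Mouse Ref-8 v2 BeadChips (Illumina), as the labels' protocols state, with 3 knockout and 3 wild-type arrays grouped by sample title. The deposited table holds 1 linear signal intensity per probe and array, not normalized, and the authors' detection p-value for each; GenomeStudio 2011.1 is named in the submitters' processing notes. A second deposited table holds the authors' log2 values, which matched a quantile normalization of the log2 intensities without background correction to within 5e-07, and all 6 columns have a median of 7.38. Depth has no meaning for arrays, and their number limits the precision.

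Intensities were corrected and normalized with neqc (normexp from detection p-values, offset of 16, quantile, log2; limma 3.58.1, R 4.3.3). The 14378 of 25697 probes detected (p under 0.05) on 3 or more of the 6 arrays were tested two-sided for knockout minus wild type by lmFit and eBayes, with Benjamini-Hochberg adjustment over all of them. An adjusted p under 0.05 was called. The tested probe with the highest mean represented a gene. A fold is a bound against the lowest detected signal where all 3 arrays of a group were below background. Levels of different probes were not compared. Each unnamed detection column was taken with the signal column before it, with which its rank correlation was stronger than with any other array. A run of the model on simulated data is not reported here and is no evidence for these results.

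Gene symbols come from the platform annotation, and a RefSeq table (GRCm38.p6) changed 0 of them. The files name no build, so promoter coordinates refer to that table alone. Members and lists were chosen with earlier results of these data known. Named genes were all members, and up to 4 called genes per Fc-related list in its main direction and 1 in the other. The 3 nearest patterns of Fcmr, Fcer1g and Fcgrt were also named. Grb2, Inpp5d, Syk, Tyrobp, Fyn, Zap70, B2m, Clec4n, Fcer1a, Trim21, Pigr, Sdhc and the B cell markers below background were added after their values were seen. Alternatives were the authors' values, an offset of 50, median scaling, other filters, the replicate number as a block, a gland covariate, wild-type replicate 2 alone and each array left out.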

Additional observations from a re-analysis of the deposited data

How the results depend on the processing

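The count of 4 members called lower was the same under each of the 14 alternatives, of which the comparison with wild-type replicate 2 alone takes its spread from the knockout arrays. The 25 pairs without overlap also stayed 25, but filters, the block, the covariate and arrays left out cannot make separate groups overlap, so this shows stability to the authors' values, an offset of 50 and median scaling at most. The 2 members called higher became 1 without a filter, 4 with the replicate block, 5 with the gland covariate, 4 against wild-type replicate 2 alone, and 0 to 3 with an array left out. Signalling genes called lower went from 6 to 10 with the replicate block and 3 with the gland covariate or against wild-type replicate 2 alone, and from 3 to 12 with an array left out. Those called higher went from 2 to 1 with the authors' values, an offset of 50 or no filter, to 0 against wild-type replicate 2 alone, to 3 with the replicate block or the gland covariate, and from 0 to 2 with an array left out. Over all probes 4119 were called, 950 against wild-type replicate 2 alone and 1805 to 6298 with an array left out, the highest without wild-type replicate 2. The sign of Fcgr2b turned against wild-type replicate 2 alone (0.67) and with the gland covariate (0.88), and with an array left out it ranged from -0.58 to 0.08 (0.02 without knockout replicate 2, 0.01 and 0.08 without wild-type replicates 1 and 3). The cause was not tested. The replicate block also brought Fcgr1 (limma adjusted p = 0.039) and Fcgr3 (0.025) under the threshold. Same-numbered arrays of the 2 groups deviated from their group means with correlations of 0.49, 0.32 and -0.31. Arrays with different numbers reached 0.42 and 0.34. Deviations within a group of 3 arrays sum to 0, so these values cannot decide whether the numbers pair the arrays. Signal over background limits the dim probes of Fcrl1 and Fcer2a.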

Other observations

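Pigr, the receptor that carries polymeric antibodies across glandular epithelium, was high on every knockout array and on wild-type replicate 2. It read 5.73, 12.63 and 5.23 in wild-type replicates 1, 2 and 3 and 10.80, 10.78 and 11.83 in the knockout. Its log2 fold change was 3.28 (SE 1.92, limma adjusted p = 0.23). The high arrays were the 4 in which the mean of the exocrine gland markers was also high. The parts of genotype and of gland tissue in this pattern were not tested.

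Fcer1a, in contrast with the members, was highest within the knockout on replicate 2 (9.14, against 7.74 and 8.46 on replicates 1 and 3), the array that was lowest for 9 of the 10 members. In wild type it read 7.48, 7.27 and 8.02, so the groups overlapped.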
